A study of Mus musculus with 18 samples.

Results

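Unsorted ED1SQ4 cells treated with CYC065 were compared with the 2 populations sorted by DNA content from CYC065-treated cells, the diploid (2N) and the polyploid (4N) population. A library that was a plain mixture of the 2 sorted populations would have lain between them for every gene, so the genes outside their range were sought. A gene counted as outside when the unsorted library was called in the same direction against both 2N and 4N cells, and 579 of 14395 genes tested met this (4.02%), from 55450 genes in the table. The comparison used 9 of 18 columns of counts, and the same comparison in vehicle-treated cells used the other 9. ED1SQ4 is a murine lung cancer cell line that was derived from a lung cancer of a mouse carrying a cyclin E transgene, and all groups carry this background. CYC065 inhibits the cyclin-dependent kinases CDK2 and CDK9. Cells received CYC065 at 0.5 µM or vehicle for 72 hours. They were stained with Vybrant DyeCycle Green, a dye that binds DNA in living cells, washed and sorted. Whether the unsorted cells were stained or passed through the sorter is not given in the sources used here. A gate at 4N DNA content also takes diploid cells that have replicated their DNA and not yet divided. Cells with a DNA content between or beyond the 2 gates, which can include part of the cells copying their DNA, would be in the unsorted library only. Their share and the bounds of the gates are not given in the sources used here, so the unsorted library need not be a mixture of the 2 gates.

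All 3 columns of a condition are parts of a library with 1 number. Over genes with whole counts they differed by no more than sampling noise in CYC065-treated cells (chi-square per degree of freedom from 0.991 to 0.999), so they were counted as 1 library per condition. Standard errors (SE) below therefore cover the spread between columns of 1 library, and a call compares libraries; whether the columns came from separate cultures is not given in the sources used here. Summed counts were 58476088 in unsorted, 54750203 in 2N and 62795507 in 4N CYC065-treated cells. Levels are given as CPM, the counts of a gene over the 3 columns of a library set against the scaled total of that library. Of 16 lung epithelial markers 3 had enough counts to be tested, and their list summed to between 5.81 and 9.33 CPM in the 3 libraries, with 5 markers at 0 in all 3. The leukocyte list summed to between 12.2 and 26.2 CPM and the endothelial and erythroid list to between 0.931 and 1.31 CPM. *Vim*, the mesenchymal filament gene, stood at 2165 CPM in unsorted, 2502 CPM in 2N and 2452 CPM in 4N cells. The cells thus carried mesenchymal markers and few defining lung epithelial ones. The targeted kinase genes *Cdk2* (27.0, 28.9 and 32.0 CPM) and *Cdk9* (68.1, 74.5 and 57.0 CPM) were not outside the sorted range. *Ccne1*, the gene for cyclin E1, stood at 14.7 CPM in unsorted, 29.3 CPM in 2N and 24.9 CPM in 4N cells and was not called against 4N cells (log2 change -0.76 ± 0.04 SE).

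The libraries were made from total RNA after removal of ribosomal RNA, and such libraries hold RNAs without a poly(A) tail. Among these are the small nuclear RNAs (snRNAs), which form the core of the spliceosome, and the small nucleolar RNAs (snoRNAs), which guide the processing and modification of ribosomal RNA. The mRNAs of replication-dependent histones also lack the tail, end in a stem-loop and are made while DNA is copied. Mitochondrial mRNAs are transcribed inside the organelle as long precursors, from both strands, and encode subunits of the respiratory chain. In each of these groups the unsorted CYC065-treated cells lay outside the sorted range for many members.

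Against 2N cells 457 genes were higher (3.17% of those tested) and 509 lower (3.54%) in unsorted cells, and against 4N cells 714 were higher (4.96%) and 545 lower (3.79%). A call required an adjusted P below 0.05 in edgeR's quasi-likelihood test with Benjamini-Hochberg adjustment and a change of more than 2-fold. Both contrasts share the unsorted library. Above both gates were 313 genes (2.17%) and below both were 266 (1.85%). At any fold, 3493 genes were above both (24.3%) and 3357 below both (23.3%). These counts at any fold rest on the spread between columns of 1 library, so they are also given for lists in which an assumed coefficient of variation between cultures of 0.1, which these data do not measure, lowers them by over 1.5 times. The plot of the 2 contrasts shows that most genes lay near zero on both axes. The margin, which is the smaller of the 2 log2 changes in size with its sign, had a median of 1.29 among genes above and -1.48 among genes below. Scaling by library size alone, without the correction for composition (TMM), moved the median of all genes by -0.19 against 2N and -0.22 against 4N cells and changed the counts to 194 above and 421 below. Under that scaling the split was 308 higher to 741 lower against 2N and 440 to 957 against 4N cells. In bulk libraries, fewer cells of a kind and less RNA per cell cannot be told apart.

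**Figure D1:**
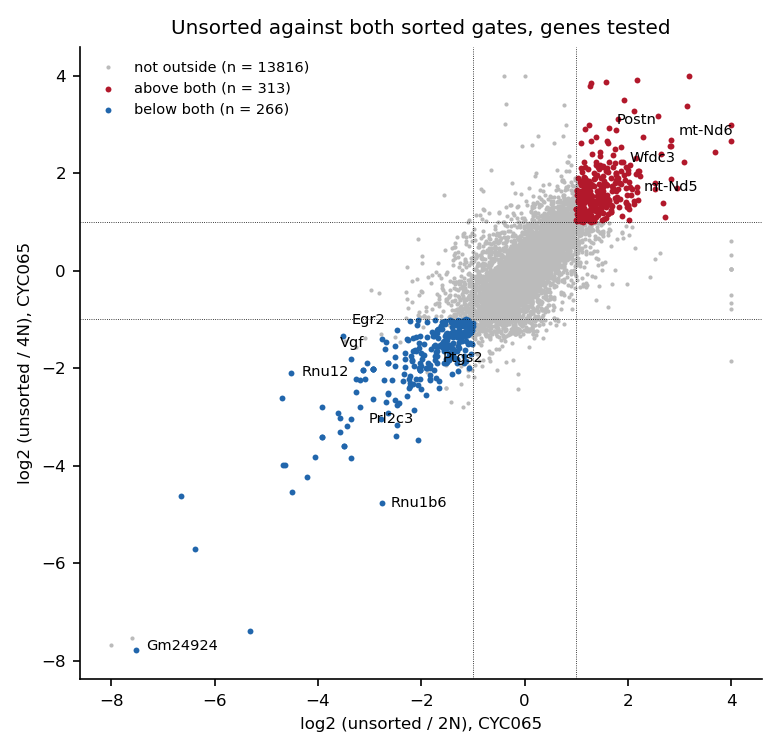
Log2 ratio of unsorted to 2N cells (horizontal) and of unsorted to 4N cells (vertical) for each of the 14395 genes tested with CYC065, with values beyond -8 or 4 drawn at that limit and dotted lines at a log2 change of 1 in each direction. Red points are the 313 genes above both gates and blue points the 266 below both; the blue points reach farther from zero, down to *Gm24924*.

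The mRNAs of the mitochondrial genome were higher in unsorted cells than in both sorted populations. Of the 13 mRNAs, 11 were above both gates and all 13 were at any fold, against 2.17% and 24.3% of all genes. Their median log2 change was 1.57 against 2N and 1.37 against 4N cells, and the median of all genes was -0.01 in both. The 13 mRNAs made up 1.62% of counts in unsorted, 0.592% in 2N and 0.712% in 4N cells. *mt-Nd6*, the complex I subunit encoded on the strand opposite to the other mRNAs, led the list. Its columns, which are parts of 1 library per condition, held 1364, 1386 and 1410 counts in unsorted cells, 215, 214 and 194 in 2N cells and 260, 283 and 263 in 4N cells. The log2 changes were 2.83 ± 0.04 SE against 2N and 2.69 ± 0.04 SE against 4N cells. The complex I genes *mt-Nd5* and *mt-Nd4* followed. *mt-Nd5* stood at 1570 CPM in unsorted, 353 CPM in 2N and 399 CPM in 4N cells (2.15 ± 0.01 and 1.98 ± 0.01 SE). *mt-Nd4* stood at 1849, 452 and 522 CPM (2.03 ± 0.01 and 1.82 ± 0.01 SE). *mt-Co1*, the catalytic subunit of cytochrome oxidase and the most counted of the list, stood at 8106, 2610 and 3127 CPM (1.64 ± 0.01 and 1.37 ± 0.01 SE). *mt-Co3* and *mt-Nd3* were not outside at 2-fold, with 98.0% or more of their 50-base stretches also found in another gene, so their reads can be split. Under library size scaling 8 of the 13 stayed above both gates at 2-fold and 13 at any fold.

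The ribosomal RNAs of the mitochondrial genome gave another picture. *mt-Rnr2*, the large ribosomal RNA, was below both gates at 179 CPM in unsorted, 520 CPM in 2N and 367 CPM in 4N cells (-1.54 ± 0.01 and -1.03 ± 0.01 SE). *mt-Rnr1*, the small one, stood at 608, 536 and 396 CPM. What is left of ribosomal RNA after its removal differed between libraries, since the ribosomal-like gene model *Gm26917* took 10.6% of counts in unsorted, 6.30% in 2N and 5.69% in 4N cells; its part in these results was not tested. Of 76 nuclear genes of the respiratory chain none was outside at 2-fold by edgeR, 7 were above and 21 below at any fold, against 24.3% and 23.3% of all genes, and the medians were -0.08 and -0.03. Under library size scaling 2 were above and 60 below, with medians of -0.26 and -0.25, and with an assumed spread of 0.1 the counts at any fold were 0 and 0.

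Replication-dependent histone genes were also higher in unsorted cells. Of 63 tested, 23 were above both gates, none was below by edgeR and 54 were above at any fold, against 2.17% above at 2-fold and 24.3% at any fold among all genes, with medians of 0.91 against 2N and 1.26 against 4N cells. *Hist2h3c2*, a histone H3 gene, stood at 118 CPM in unsorted, 41.5 CPM in 2N and 34.6 CPM in 4N cells (1.5 ± 0.04 and 1.76 ± 0.04 SE). The linker histone *Hist1h1c* stood at 79.1, 29.5 and 18.1 CPM (1.42 ± 0.04 and 2.13 ± 0.05 SE). *Hist2h2ac*, a histone H2A gene, stood at 12.5, 4.36 and 4.04 CPM (1.52 ± 0.10 and 1.63 ± 0.10 SE), and the H4 gene *Hist1h4j* at 8.71, 3.02 and 2.66 CPM (1.53 ± 0.14 and 1.71 ± 0.13 SE). *Hist1h4d* was among the most counted members that were not outside, at 72.5, 62.6 and 66.9 CPM. Members of the family share sequence (a median of 52.3% of their 50-base stretches), so single genes are less certain than the list. Library size scaling left 12 of them above both gates. Of 10 replication-independent variants none was outside by edgeR, with medians of -0.16 and -0.21. *Slbp*, whose product binds the histone stem-loop, stood at 41.7 CPM in unsorted, 63.9 CPM in 2N and 55.0 CPM in 4N cells; it was picked after its values were seen.

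The stem-loop is shown because it is the feature these mRNAs share in place of a poly(A) tail. The 16 bases were found as the self-complementary stretch shared by the largest number of list genes within the last 100 bases of their transcripts, 13 of 70 (GENCODE M21, mm10), and capitals mark the paired arms of 6 bases around a loop of 4.

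Histone stem-loop: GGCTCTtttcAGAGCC

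These exact letters were in the transcripts of 25 of 63 histone genes tested, 9 of the 23 above both gates and 0.188% of all genes tested. The letters were searched on the transcript strand, a match is a description of the annotation, and transcripts without one may hold other letters at that place.

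Some genes of extracellular matrix and secreted proteins were also above both gates. Of 29 matrix genes in the list 2 were above and 1 was below at 2-fold, against 2.17% and 1.85% of all genes. At any fold 20 were above and 3 below, against 24.3% and 23.3%, with medians of 0.36 and 0.62. With an assumed spread of 0.1 the 20 became 6, and with 0.2 no member was outside. *Col4a1* and *Col4a2*, which encode the chains of basement membrane collagen, were the 2 above. *Col4a1* stood at 1356 CPM in unsorted, 636 CPM in 2N and 456 CPM in 4N cells (1.09 ± 0.01 and 1.57 ± 0.01 SE), and *Col4a2* at 1025, 434 and 320 CPM (1.24 ± 0.01 and 1.68 ± 0.01 SE). *Lama3*, a laminin chain, had 5 counts in unsorted, 26 in 2N and 34 in 4N cells. The most counted members, fibronectin (*Fn1*, 11288, 8852 and 6835 CPM) and *Col1a2* (7146, 5904 and 4633 CPM), were higher than both by less than 2-fold. Under library size scaling *Col4a2* was the member still above at 2-fold, and the medians were 0.18 and 0.40.

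*Postn*, which encodes the matrix protein periostin, was also above both gates. Its columns held 4487, 4408 and 4462 counts in unsorted cells, 1594, 1481 and 1520 in 2N cells and 739, 746 and 723 in 4N cells. The log2 changes were 1.63 ± 0.03 SE and 2.92 ± 0.03 SE, and the 4N library was the lowest of the 3. Other matrix and secreted products above both gates, picked after their values were seen and given in the order unsorted, 2N and 4N, were the small leucine-rich proteoglycans *Fmod* (15.7, 5.70 and 3.05 CPM), *Prelp* (54.0, 25.2 and 16.1 CPM) and *Podn* (8.46, 3.81 and 2.22 CPM), the basement membrane protein *Nid2* (64.9, 23.7 and 19.1 CPM), the mineralization inhibitor *Mgp* (130, 55.3 and 30.6 CPM) and *Tgfbi* (68.5, 25.6 and 15.4 CPM). The heparan sulfate editing enzyme *Sulf2* stood at 339, 133 and 102 CPM. The secreted factor *Bmp4* stood at 10.8, 4.02 and 4.85 CPM. With vehicle *Fmod*, *Prelp* and *Tgfbi* were also above both gates (margins of 1.31, 1.42 and 1.74), and *Podn*, *Nid2*, *Mgp*, *Sulf2* and *Bmp4* were not.

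The 12 leading named genes also held products outside these lists. *Sort1*, ranked after them and picked later, encodes the sorting receptor sortilin and stood at 76.4, 25.9 and 27.3 CPM in unsorted, 2N and 4N cells (1.56 ± 0.04 and 1.48 ± 0.04 SE). *Agt*, which encodes angiotensinogen, had 382, 124 and 92 counts (1.71 ± 0.14 and 2.37 ± 0.15 SE). *Dio2*, the deiodinase that activates thyroid hormone, had 724, 255 and 267 counts (1.60 ± 0.12 and 1.76 ± 0.12 SE). *Elmo1*, which acts in engulfment and cell migration, had 816, 269 and 307 counts (1.69 ± 0.09 and 1.73 ± 0.08 SE). *C1qtnf3*, a secreted C1q-like protein, had 613, 199 and 176 counts, *Btn1a1*, a milk fat globule protein, had 911, 284 and 154, and *Wfdc3* had 955, 279 and 206 counts. *Xist*, the noncoding RNA of X inactivation, was the member of the long noncoding list above both gates, at 1305, 597 and 644 CPM (1.13 ± 0.01 and 1.02 ± 0.01 SE), and it fell short of 2-fold under library size scaling.

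**Figure D2:**
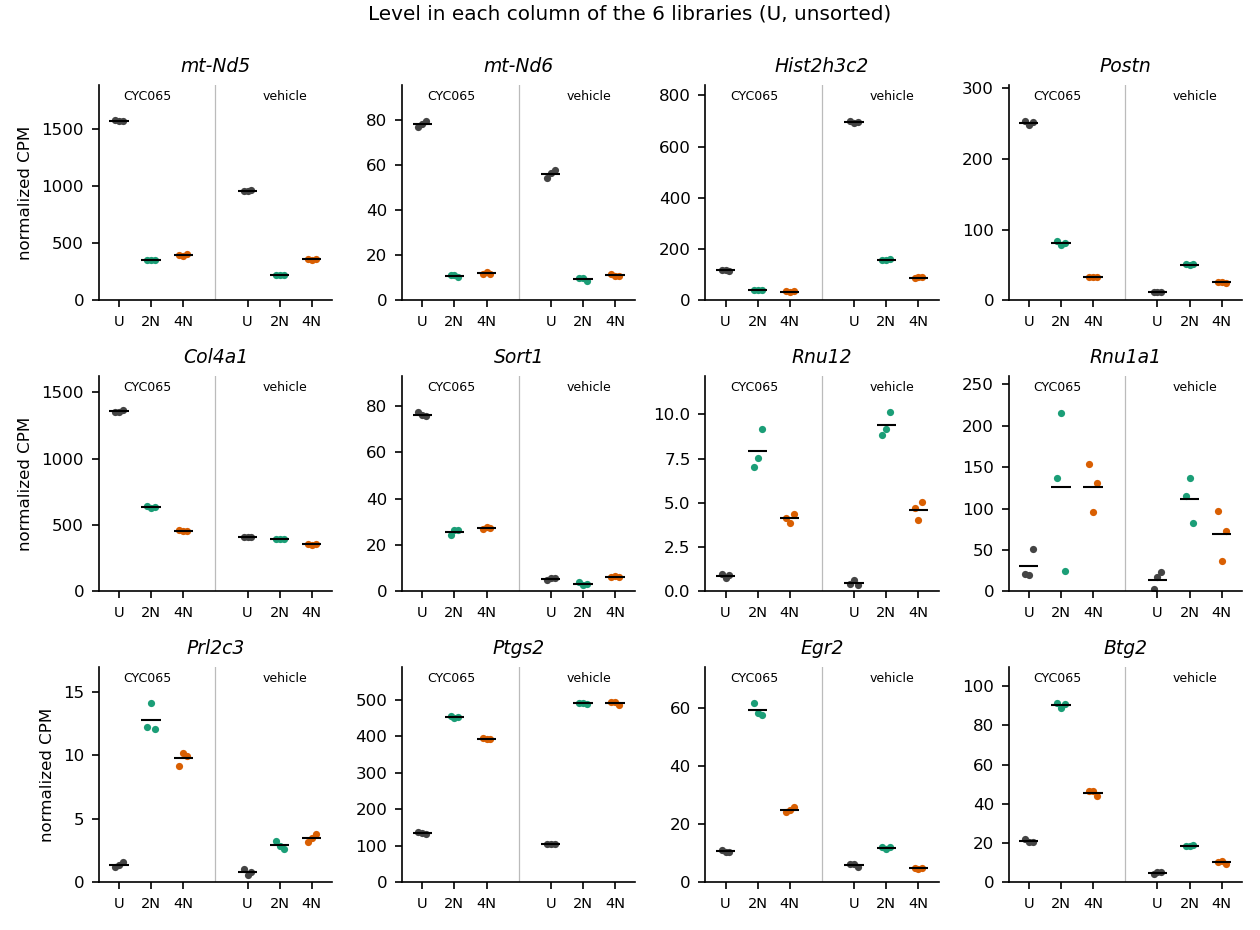
Normalized CPM (vertical, from 0) of 12 genes in each of the 3 columns of the 6 libraries, with unsorted (U), 2N and 4N cells on the left for CYC065 and on the right for vehicle; points are columns of 1 library and bars their mean. In CYC065-treated cells the unsorted points of *mt-Nd5*, *Postn* and *Col4a1* lie above both gates and those of *Ptgs2*, *Egr2* and *Rnu12* below both, and *Rnu1a1* shows the split of reads between copies.

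By number, the largest group above both gates after protein-coding genes was the class TEC of the annotation, gene models that still await an experimental check. Of 751 such models tested 115 were above both gates (15.3% of the class) and 2 were below, against 2.17% and 1.85% of all genes. The 115 were 36.7% of all genes above. Of these 115 models, 106 had under 300 counts in their highest library. Models lying inside a protein-coding gene on the same strand were above in 101 of 575 cases (17.6%) and the others in 14 of 176 (7.95%). Reads from unspliced RNA of the host gene and from the model cannot be told apart. The median log2 change of the class was 0.51 against 2N and 0.48 against 4N cells. *Gm49493*, the leading model of this class, had 508 counts in unsorted, 177 in 2N and 157 in 4N cells. *Gm10222*, a pseudogene with all its 50-base stretches found in another gene, had 12918, 3846 and 4649 counts.

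**Figure D3:**
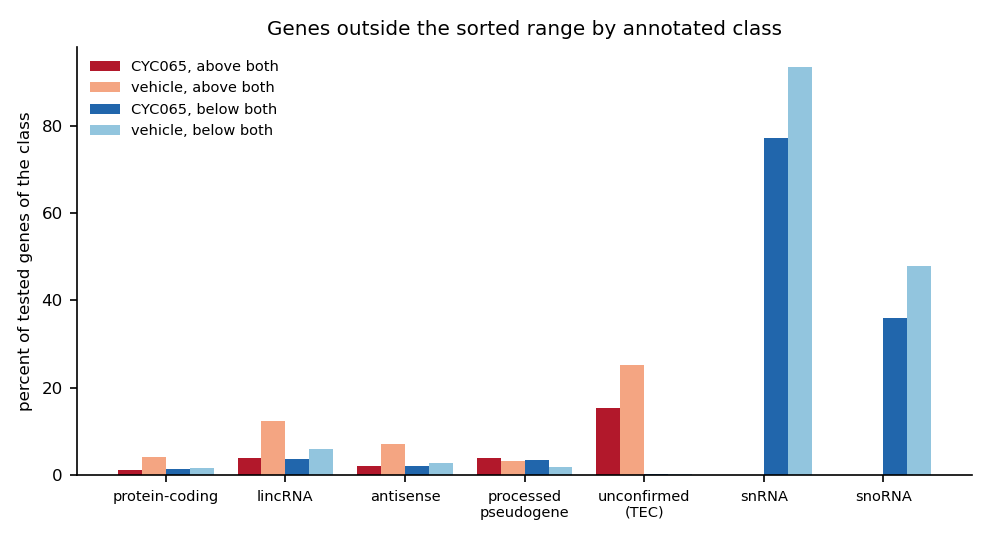
Percent of the tested genes of each annotated class (vertical, from 0) that lay above or below both sorted gates, in CYC065-treated and vehicle-treated cells. snRNAs and snoRNAs appear below both gates in both treatments, and TEC models above.

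snRNAs and snoRNAs were lower in unsorted cells than in both sorted populations. Of 35 snRNAs tested 27 were below (77.1%) and of 50 snoRNAs 18 were below (36.0%), against 1.85% of all genes, and none of either class was above by edgeR. Many copies share their sequence, and the authors' estimation spread the reads among them: *Rnu1a1* held 2581, 4080 and 458 counts in the 3 columns of the same 2N library, and the lowest of these overlapped the unsorted columns. Copies were therefore also summed into families, taking transcripts of at most 300 bases with at least 50% of their 20-base stretches in the named genes. The sums were stable between columns. The U1 family held 16 genes below both gates, with 11 distinct patterns of counts over the columns. The U3 family held 9, with 3 patterns, so the copies behind the class shares are not separate observations. The U1 family, which recognizes the 5′ splice site, held between 5912 and 5961 counts per column in unsorted cells, between 32257 and 32461 in 2N cells and between 30688 and 31165 in 4N cells. On the log2 scale the unsorted level of U1 was -2.35 against 2N and -2.05 against 4N. The U2 family, which binds the branch point, was at 93.5 CPM in unsorted, 404 CPM in 2N and 307 CPM in 4N cells (-2.11 and -1.72). The U3 family, box C/D snoRNAs needed to cut the ribosomal RNA precursor, was at 29.1, 134 and 108 CPM (-2.20 and -1.90). The U12 and U11 RNAs belong to the minor spliceosome. U12 was at 0.902, 7.94 and 4.22 CPM (-3.14 and -2.22), and U11 at 0.320, 0.952 and 1.20 CPM (-1.58 and -1.91). In all 5 families the 3 unsorted columns lay below every sorted column, as they did in U5 (0.319, 2.31 and 1.87 CPM). The columns of a condition are parts of 1 library, so this does not count as replication.

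The RNAs below are shown because each stands for a kind of RNA that fell: the U1 copies, the minor spliceosome, a box C/D and an H/ACA snoRNA. Sequences are from GENCODE M21 with mm10 coordinates. In the U1 RNAs capitals mark the first 11 bases, which hold the stretch that pairs with the 5′ splice site; in U12 they mark AAGGAA, part of the stretch that pairs with the branch site of minor introns; in *Snord118* they mark the C box TGATGA and the D box CTGA; and in *Snora23* the ACA box, 3 bases before the end.

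*Rnu1a1* (chr11:87422867-87423030, + strand, 164 bases): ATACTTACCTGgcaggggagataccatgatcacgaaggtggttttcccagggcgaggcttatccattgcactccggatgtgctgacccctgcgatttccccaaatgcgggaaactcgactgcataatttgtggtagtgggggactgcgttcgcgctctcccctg

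*Rnu1b6* (chr3:96460024-96460189, - strand, 166 bases): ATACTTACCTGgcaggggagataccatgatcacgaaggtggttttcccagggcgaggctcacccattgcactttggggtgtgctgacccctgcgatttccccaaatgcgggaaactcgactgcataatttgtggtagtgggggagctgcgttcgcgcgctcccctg

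*Rnu12* (chr15:83149644-83149794, + strand, 151 bases): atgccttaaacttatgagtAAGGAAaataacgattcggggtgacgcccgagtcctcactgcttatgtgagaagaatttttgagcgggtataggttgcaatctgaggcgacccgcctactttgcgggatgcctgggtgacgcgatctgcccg

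*Snord118* (chr11:69073427-69073561, + strand, 135 bases): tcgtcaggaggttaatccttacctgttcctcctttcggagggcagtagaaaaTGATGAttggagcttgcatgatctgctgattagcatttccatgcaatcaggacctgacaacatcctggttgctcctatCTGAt

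*Snora23* (chr7:110046364-110046547, + strand, 184 bases): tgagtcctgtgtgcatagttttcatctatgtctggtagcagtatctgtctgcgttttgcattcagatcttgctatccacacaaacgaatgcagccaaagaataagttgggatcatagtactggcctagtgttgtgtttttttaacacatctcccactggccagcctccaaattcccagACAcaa

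*Rnu1a1* and *Rnu1b6* represent the 2 kinds of U1 and differ by 8 single-base changes, insertions or deletions over 164 and 166 bases. Their first 11 bases are the same. *Snord118*, the U8 snoRNA needed for the large ribosomal subunit, had 6 counts in unsorted, 73 in 2N and 72 in 4N cells, and its level in 2N cells was 11.4-fold higher (exact 95% interval 5.00 to 32.1, counting error only). *Snora23*, an H/ACA snoRNA, had 2, 62 and 46 counts, a ratio of 29.1 for 2N over unsorted (7.72 to 246) and of 18.4 for 4N (4.80 to 156). *Rnu12* itself had 46, 449 and 275 counts, 9.16-fold higher in 2N (6.75 to 12.7). The gene model *Gm24924*, an snRNA copy that shares 95.7% of its stretches with others, had 4, 856 and 1205 counts.

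Short length went with the low levels up to a point. Of 135 genes of at most 300 bases 49 were below both gates (36.3%) and 4 above, against 1.85% and 2.17% of all genes. Between 151 and 200 bases 26 of 35 genes were below (74.3%), at 150 bases or fewer 12 of 44 (27.3%), between 201 and 300 bases 11 of 56 (19.6%) and between 301 and 500 bases 6 of 165 (3.64%). Copies of 1 RNA were counted singly here, and the 49 genes had 37 distinct count patterns. The U1 family had 16 genes below and the U2 family 7. The part of these families in the relation with length was not tested. The abundant RNAs of about 300 bases went either way. *Rn7s2*, a copy of the 7SL RNA of the signal recognition particle, stood at 26275 CPM in unsorted, 16045 CPM in 2N and 11769 CPM in 4N cells (0.71 ± 0.02 and 1.16 ± 0.02 SE). *Rn7sk*, the 7SK RNA that holds the kinase CDK9 inactive, stood at 12362, 11375 and 10330 CPM, and the RNase P RNA *Rpph1* at 1270, 916 and 618 CPM. *Rmrp*, the RNase MRP RNA, went the other way, at 1551, 1963 and 1683 CPM (-0.34 ± 0.01 and -0.12 ± 0.01 SE). None of these was outside at 2-fold, and *Rn7sk*, *Rpph1* and *Rmrp* were picked after their values were seen. Under library size scaling 22 of the 48 small structured RNAs tested were below both gates, as in the main comparison. At any fold 8 of the 48 were above and 27 below in the main comparison, against 24.3% and 23.3% of all genes. With an assumed spread of 0.1 these counts were 1 and 25. Fragment size, RNA input and handling of the unsorted and sorted libraries are not in the files, and their part was not tested.

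**Figure D4:**
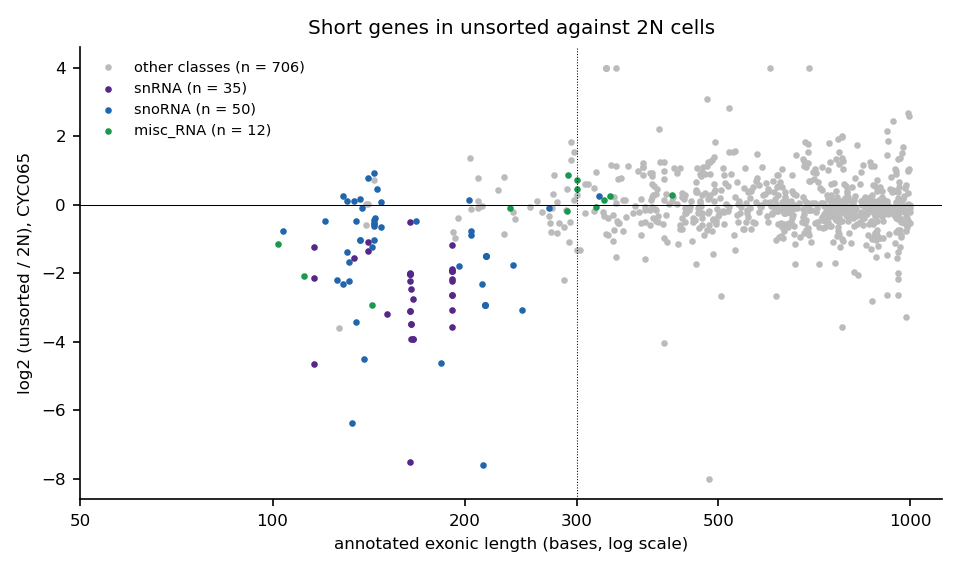
Log2 ratio of unsorted to 2N CYC065-treated cells (vertical, limited to between -8 and 4) against annotated exonic length in bases (horizontal, log scale) for short tested genes, with the dotted line at 300 bases. snRNAs and snoRNAs between 100 and 250 bases spread downward, and the misc_RNA points near 300 bases lie about zero or higher.

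Among protein-coding genes, *Ptgs2* and some genes of secreted factors were lower in unsorted cells than in both sorted populations. Other genes of secreted factors, such as *Bmp4* and *Igf2*, were above both gates. *Ptgs2*, the inducible cyclooxygenase, held 2436, 2396 and 2340 counts in the unsorted columns, 8609, 8494 and 8559 in 2N cells and 8775, 8712 and 8691 in 4N cells (-1.75 ± 0.01 and -1.54 ± 0.01 SE). *Plau*, the protease urokinase, stood at 8.43 CPM in unsorted, 25.4 CPM in 2N and 17.6 CPM in 4N cells. The EGF receptor ligands *Ereg* (27.2, 65.4 and 69.7 CPM), *Areg* (10, 71 and 39 counts) and *Tgfa* (34, 81 and 108 counts) were all below both gates, as were the cytokine *Lif* (3.8, 11.6 and 8.32 CPM) and the activin inhibitor *Fst* (7.94, 17.5 and 16.8 CPM). With vehicle *Ptgs2*, *Plau*, *Ereg*, *Areg* and *Fst* were also below both gates (margins of -2.22, -2.41, -1.35, -1.38 and -1.22). *Lif* (-0.98) and *Tgfa* (0.62) were not. Apart from *Ptgs2* and *Lif*, which are in the list of chemokines and NF-κB targets, these genes were picked after their values were seen. Of 14 genes of that list tested 2 were below and 1 was above, against 1.85% and 2.17% of all genes; the 1 above was *Cxcl15*, a chemokine, with 32, 15 and 5 counts.

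The prolactin family members *Prl2c3* and *Prl2c2* had the largest margins among protein-coding genes below with at least 300 counts. *Prl2c3* had 75 counts in unsorted, 725 in 2N and 650 in 4N cells (-3.18 ± 0.12 and -2.79 ± 0.13 SE), and *Prl2c2* had 242, 1523 and 1432 (-2.56 ± 0.10 and -2.24 ± 0.11 SE). They share 60.0% and 83.3% of their stretches with other genes. *Vgf*, a secreted neuropeptide precursor, had 62, 686 and 275 counts (-3.37 ± 0.12 and -1.82 ± 0.15 SE). *Serpinb1a*, an inhibitor of neutrophil proteases, had 86, 340 and 429 counts (-1.89 ± 0.14 and -1.99 ± 0.14 SE), and 4 of 8 *Serpinb* genes tested, itself included, were below both gates, against 1.85% of all genes; this family was picked after its values were seen.

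Some immediate early genes, which respond to stimuli without new protein synthesis, were lower. Of 35 tested 4 were below both gates, against 1.85% of all genes, and none was above by edgeR. At any fold 15 were below and 4 above, against 23.3% and 24.3%; this became 24 and 1 under library size scaling and 7 and 0 with an assumed spread of 0.1. The medians were -0.46 and -0.12. *Egr2* held 198, 186 and 187 counts in the unsorted columns, 1168, 1102 and 1090 in 2N cells and 542, 551 and 574 in 4N cells (-2.46 ± 0.05 and -1.22 ± 0.05 SE). *Arc* stood at 3.82, 25.8 and 10.2 CPM, *Atf3*, a stress-induced factor, at 5.04, 21.8 and 12.9 CPM, and *Btg2*, also a p53 target, at 21.2, 90.4 and 45.8 CPM. In all 4 the 2N library was the highest. *Fosl2* (493, 428 and 480 CPM) and *Junb* (392, 418 and 259 CPM), the most counted of the list, were not outside.

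Differences were small for genes of the contractile cytoskeleton and tubulins. Of 22 actin genes and targets of serum response factor (SRF) 3 were below both gates and 18 were below at any fold, against 1.85% and 23.3% of all genes, with none above at any fold by edgeR. With an assumed spread of 0.1 the 18 became 5, and with 0.2 no member was below. *Ankrd1* stood at 30.1, 64.5 and 72.1 CPM (-1.10 ± 0.04 and -1.26 ± 0.03 SE), and *Cnn1* (48, 164 and 158 counts) and *Tagln* (24, 96 and 63 counts) were the other two. *Actb*, the most counted, stood at 3260, 5234 and 4862 CPM, lower by less than 2-fold. Of 12 tubulin genes 11 were below at any fold, and 1 with an assumed spread of 0.1 or 0.2. *Tubb3* was below at 2-fold (184, 593 and 658 counts). Of 20 heat shock genes 13 were below at any fold, against 23.3% of all genes, 2 with an assumed spread of 0.1 and 0 with 0.2. *Hspb1* was below at 2-fold (22.1, 49.9 and 44.7 CPM).

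DNA replication genes were mostly lower in the unsorted library than in both sorted libraries, by less than 2-fold. Of 53 tested 49 were below both at any fold, against 23.3% of all genes, and none was above by edgeR; with an assumed spread of 0.1 the count was 23 and with 0.2 it was 0. At 2-fold 1 was below, against 1.85% of all genes, and the medians were -0.55 against 2N and -0.83 against 4N cells. *Mcm10*, which acts when replication starts, was the member below at 2-fold, at 10.5 CPM in unsorted, 21 CPM in 2N and 29.9 CPM in 4N cells. The count at 2-fold was 11 under library size scaling. The replication-dependent histones, listed above, lay on the other side of the range. Mitotic genes lay inside it or near its lower end. All 55 were higher in 4N than in 2N cells by CPM, with a median of 1.18, and the unsorted library lay between the gates for 31 and under the 2N level for 24. *Top2a* stood at 337 CPM in unsorted, 262 CPM in 2N and 716 CPM in 4N cells, and *Mki67* at 261, 221 and 521 CPM. Their position from 2N (0) to 4N (1) had a median of 0.02.

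Over all 481 genes called between 4N and 2N cells with CYC065 (195 higher in 4N, 1.35%, and 286 lower, 1.99%) the median position was 0.42, with quartiles of 0.03 and 0.86. The unsorted library lay between the gates for 284 of them, beyond the 2N level for 111 and beyond the 4N level for 86. Cholesterol synthesis genes were above both gates at any fold in 27 of 28 cases, against 24.3% of all genes, and at 2-fold in none by edgeR; the 27 became 6 with an assumed spread of 0.1 and 0 with 0.2. The medians were 0.35 and 0.58. *Scd1*, a fatty acid desaturase counted in that list, stood at 1044, 664 and 561 CPM. Ribosomal protein genes (78 tested) had medians of -0.08 and 0.02, glycolysis and hypoxia genes (35) 0.10 and 0.23, unfolded protein response genes (19) 0.09 and 0.22, and interferon genes (35) 0.07 and 0.33; in these 4 lists 1 gene was outside at 2-fold, *Irf7*, which was below (65, 157 and 169 counts). Of 22 p53 targets *Btg2* was below both gates, of 22 NRF2 targets *Gsta1* and *Gsta3* were outside in opposite directions, and none of 14 ERK feedback genes was outside by edgeR. The medians of ribosomal protein, glycolysis, unfolded protein and interferon genes against 2N cells were all under zero with library size scaling.

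**Figure D5:**
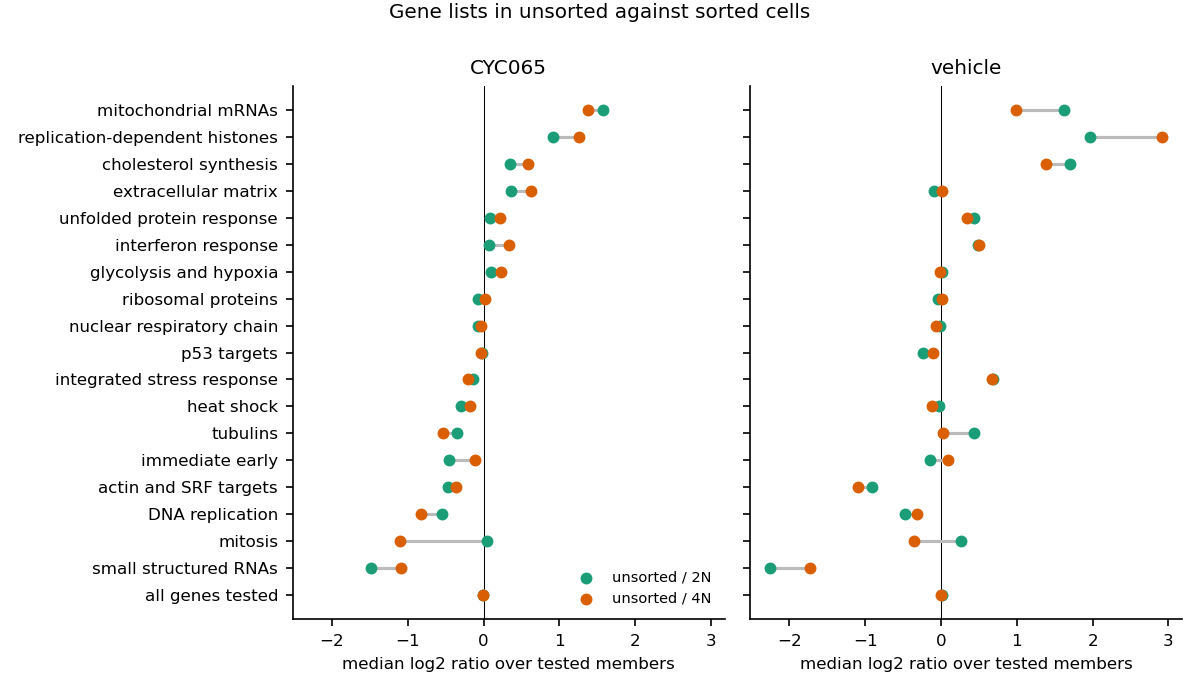
Median log2 ratio of unsorted to 2N (green) and unsorted to 4N cells (orange) over the tested members of each gene list (horizontal), with CYC065 on the left and vehicle on the right. Mitochondrial mRNAs and histones lie to the right and small structured RNAs to the left in both treatments, and extracellular matrix genes lie to the right with CYC065.

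The vehicle-treated cells gave the same measure in libraries that the choice of genes had not used. There 767 of 13810 genes were above both gates (5.55%) and 290 below (2.1%). Of the 313 genes above with CYC065, 223 were tested with vehicle, 125 of these were above both gates there too (56.1% of those tested and 16.3% of the vehicle list) and 3 were below. Of the 266 below with CYC065, 212 were tested, 89 were below with vehicle (42% and 30.7%) and 4 were above. The median vehicle log2 change of the genes above was 1.37 against 2N and 1.58 against 4N cells, that of the genes below was -0.94 and -1.21, and that of all genes was 0.00 and 0.00. Of mitochondrial mRNAs 6 of 13 were above both gates with vehicle, of histones 57 of 63, and of small structured RNAs 23 of 45 were below. The U1 family was at 136 CPM in unsorted, 1244 CPM in 2N and 899 CPM in 4N vehicle-treated cells.

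The difference between treatments was tested gene by gene in a fit on all 18 columns. The change from sorted to unsorted cells was higher with CYC065 for 202 of 14761 genes (1.37%) and lower for 523 (3.54%), against both gates. In what follows, higher or lower with CYC065 refers to this change, and not to the level of a gene. Of the genes above both gates with CYC065, 26 were among the 202 and 12 among the 523. Of those below, 67 were among the 523 and 6 among the 202. *Postn* and *Igf2* changed sides. With vehicle *Postn* was below both gates at 12.1 CPM in unsorted, 50.7 CPM in 2N and 25.6 CPM in 4N cells, and the difference was 3.69 ± 0.05 SE for 2N and 3.99 ± 0.05 SE for 4N. *Igf2*, a growth factor, stood at 10.8, 4.47 and 3.15 CPM with CYC065 and at 0.207, 1.38 and 1.81 CPM with vehicle, and the difference had a margin of 3.98. *Gsta3*, a glutathione transferase with 51, 22 and 19 counts with CYC065, also changed sides, with a margin of 4.01. *Col4a1* and *Col4a2* both passed the test of the difference with a margin of 1.02, and over the 29 matrix genes 7 were higher with CYC065 and none lower. Of 24 integrated stress response genes 8 were lower with CYC065 and none higher; their medians were -0.14 and -0.20 with CYC065, where *Stc2* was below both gates, and 0.68 and 0.67 with vehicle, where 7 were above. Histones were also lower with CYC065 in 31 of 64 cases, since their rise was larger with vehicle. Of 28 cholesterol synthesis genes 9 were lower with CYC065 and none higher by edgeR. With vehicle 19 of these 28 were above both gates, with medians of 1.70 against 2N and 1.38 against 4N cells. None of the 13 mitochondrial mRNAs passed the test of the difference by edgeR, in either direction. Of 50 small structured RNAs 8 were higher with CYC065, among them *Snord17* (margin 1.51), since their fall was larger with vehicle. The change of *Egr2* and *Atf3* (margins of -1.45 each) and of *Tubb3* (-1.61) was lower with CYC065 than with vehicle. *Prl2c2*, which was not below with vehicle (19.1, 11.3 and 14.0 CPM), had a difference of -2.69.

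At the threshold, *Pcdhga7* and *L1cam* (margins of 1.0) were the last genes above and *Chrm4* and *Gm37584* (also 1.0 when rounded) the nearest short of it; *S100a5* and *Eps8l2* were the last below at -1.0, and *Gm38357* and *Slc9a2* the nearest short of it. Of the genes above, 45.7% had under 100 counts in their highest library, as did 52.3% of those below and 16% of all genes tested. Genes with over 20% of their stretches in another gene were 17.6% of those above, 27.1% of those below and 9.82% of all. With an assumed spread between cultures of 0.2 (coefficient of variation), which these data do not measure, 70 genes above and 84 below passed, among them 5 mitochondrial mRNAs, 8 histones and 20 small structured RNAs.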

How the data were processed

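RNA-Seq was done on ED1SQ4 cells treated with vehicle or CYC065, unsorted or sorted as 2N and 4N cells. Per the submitters' processing notes, bcl2fastq 2.17, cutadapt 1.18, STAR 2.7.0f and RSEM 1.3.1 were used with mm10; the study's methods give other versions of bcl2fastq and RSEM and the GENCODE M21 annotation, which all 55450 rows matched. The deposited values are RSEM expected counts, which the authors did not normalize. They were rounded to whole numbers here, a step that touched the 9.66% of rows holding a fraction.

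Counts were fitted with edgeR 4.0.16 (quasi-likelihood test, TMM, prior count 0.125, Benjamini-Hochberg adjustment over all genes tested) in R 4.3.3, on the 9 columns of each treatment and, for the difference between treatments, on all 18. Genes were tested if the 3 columns of any condition summed to 30 counts or more. Tables and figures were made with Python 3.11.15, pandas 2.3.3 and Matplotlib 3.10.9. On simulated counts of 13767 genes for the comparison with CYC065, 200 of 200 changed genes were recovered and 0 others were called. Those changes were all larger than the threshold and were placed only in genes with a mean of 30 counts or more per column. No spread between libraries and no splitting of reads between copies was simulated. The simulation thus checks the running of the fit, and not calls near the threshold or in genes with few counts. With 1 library per condition, P values compare libraries; the depth of 54750203 to 62795507 counts per library limits genes with few counts, and intervals cover counting error only.

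The genes described and the gene lists were chosen with earlier results of these data known. Named genes were the 12 of largest margin in each direction with at least 300 counts in the highest library, leaving out names of gene models; the 3 largest models; up to 6 members outside and 2 not outside per list; the genes next to the threshold; *Cdk2*, *Cdk9* and *Ccne1*; and up to 6 per direction outside in both treatments or differing between treatments. Of these, the ones that show each group are printed. Alternatives were DESeq2 1.42.0, other scalings, filters, prior counts and thresholds, assumed spreads between cultures, a replicate block, leaving out each replicate, and, chosen after seeing the data, leaving out genes with shared sequence, counting identical copies once and scaling without mitochondrial, small structured and ribosomal-like genes.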

Additional observations from a re-analysis of the deposited data

Results flagged for a closer look

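The test of the difference between treatments, in the fit on all 18 columns, called 202 genes whose change from sorted to unsorted cells was higher with CYC065 than with vehicle and 523 whose change was lower. The 6 genes of largest margin in each direction with at least 300 counts are given here, where the margin is the smaller of the differences for 2N and 4N cells on the log2 scale. The change was higher with CYC065 for *Gm26244* (6.28), *Igf2* (3.98), *Postn* (3.69), *Btn1a1* (2.56), *Txnip* (2.54) and *Cpa4* (2.47). *Txnip*, an inhibitor of thioredoxin, stood at 102 CPM in unsorted, 116 CPM in 2N and 85.3 CPM in 4N cells with CYC065 and at 29.0, 191 and 171 CPM with vehicle, so it lay inside the sorted range with CYC065 and below it with vehicle. *Gm26244* is an snRNA copy that shares 88.7% of its 50-base stretches with other genes, and *Igf2* shares 61.2%.

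The change, and not the level, was lower with CYC065 for *Slc7a11* (-3.86), *Gm11518* (-3.59), *Lrrc17* (-3.07), *Trib3* (-3.05), *Ddit4* (-2.71) and *Chac1* (-2.70). *Slc7a11*, the cystine transporter, stood at 24.1, 32.2 and 28.1 CPM with CYC065 and at 53.3, 3.57 and 4.30 CPM with vehicle. *Trib3*, a stress-induced pseudokinase, stood at 25.2, 44.2 and 43.5 CPM with CYC065 and at 54.5, 11.6 and 10.7 CPM with vehicle. *Ddit4*, an inhibitor of mTOR signaling, stood at 106, 60.4 and 46.2 CPM with CYC065 and at 52.9, 4.46 and 3.53 CPM with vehicle. *Gm11518*, a processed pseudogene whose stretches are all shared with other genes, stood at 3.93, 65.1 and 55.7 CPM with CYC065 and at 55.8, 76.7 and 55.5 CPM with vehicle. With 1 library per condition, a difference between treatments and one between libraries cannot be told apart.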

How the results depend on the processing

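Counts are given as higher or above, then lower or below, and the main values are in the report. An assumed spread between cultures of 0.2 left 258 genes against 2N, 368 against 4N, 70 above and 84 below both gates with CYC065, 364 and 151 with vehicle, and 16 and 39 for the difference between treatments. A summed count of at least 100 gave 440 against 2N, 742 against 4N, 170 and 126 with CYC065 and 502 and 187 with vehicle; this filter tests fewer genes. Library size scaling gave 194 and 421 with CYC065 and left 12 of 23 histones above; the part of the ribosomal-like counts in this was not tested. A threshold of 1.5-fold gave 871 and 644, and a log2 change beyond 2 gave 19 and 65. DESeq2, size factors of DESeq2, an assumed spread of 0.1, no filter, a prior count of 2, genes with whole counts and the fit on all 18 columns, where run, moved none of these counts of calls at 2-fold by over 1.5 times, nor did the alternatives chosen after seeing the data: genes sharing at most 20% of their stretches (258 and 194), identical copies counted once (313 and 254) and scaling without mitochondrial, small structured and ribosomal-like genes (314 and 265). The counts of list members at any fold were less stable: with an assumed spread of 0.1 the count below went from 49 to 23 for DNA replication, 18 to 5 for actin and SRF, 11 to 1 for tubulin, 13 to 2 for heat shock and 15 to 7 for immediate early genes, and the count above from 27 to 6 for cholesterol and 20 to 6 for matrix genes.

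Without replicate 1, 2 or 3 in turn, 782 to 828 genes were called against 2N, 1076 to 1149 against 4N, 265 to 283 above and 206 to 224 below with CYC065, 680 to 689 and 252 to 261 with vehicle, and 190 to 196 and 429 to 434 for the difference. These totals include genes not called in the main fit. Of the 579 genes outside with CYC065, 410, 405 and 395 were still outside without replicate 1, 2 and 3. The filter on summed counts then rested on fewer columns. Of 142 named genes, 7 lost their call under library size scaling and between 3 and 7 without a replicate, counting only genes with a result in that run. Without replicate 1, 2 and 3, 131, 131 and 128 of the 142 kept their result, and some had none. No named gene changed direction under the alternatives run for it.

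The replicate numbers do not pair the columns: deviations of same-numbered columns correlated between -0.191 and 0.142. With the replicate block the counts were 968 against 2N, 1262 against 4N, 313 and 267 with CYC065, 773 and 289 with vehicle, and 203 and 513 for the difference. Spread between cultures was not measured, and genes with few counts or shared sequence are the least certain.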

Other observations

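Clustered protocadherins, cell adhesion genes that share their 3′ exons within a cluster, were chosen after their values were seen. Of 31 tested, 7 were above both gates with CYC065 and 0 below by edgeR, against 2.17% and 1.85% of all genes, and shared exons can split their reads.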
